A study of Arabidopsis thaliana with 9 samples.

Results

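PYK10 (AT3G09260) and JAL33 (AT3G16450) were followed across the 9 root arrays of the series through the 1 probe set annotated to each. They are 2 of the 13286 genes matched to a named probe set, among 22746 probe sets other than the maker's controls. Both genes lie on chromosome 3. Both were selected on their signals and ranks on these arrays and on their differences between arrays and lines, so these values are given as a description with no test. RNA came from roots of Arabidopsis thaliana in 3 lines of 3 Affymetrix ATH1 arrays each. The lines were the wild type Col-0 (stock N1092) and the lines labelled cngc1-3 and cngc19, which are T-DNA knock-outs in the Col-0 background. All plants were moved to aerated hydroponics on day 18 after germination and harvested on day 25, at growth stage 3.90. Each tube held the pooled roots of 20 to 30 plants, and the labels name no caesium treatment, although the series title speaks of caesium. None of the 20 CNGC channel genes had a named probe set, so the knock-outs could not be checked.

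ER bodies are rod-shaped compartments of the endoplasmic reticulum found in seedlings and roots of the cabbage family. PYK10 is the beta-glucosidase that fills them, and it can split glucosinolates, the sulphur-containing defence compounds of these plants, once a cell is broken. Jacalin-related lectins such as JAL33 bind sugars, and they assemble with PYK10 into large aggregates after tissue is crushed. NAI1 is a transcription factor needed for PYK10 expression and for ER bodies, and NAI2 is an ER-body protein needed to form them. In pooled roots, fewer cells with ER bodies and less of a transcript per cell cannot be told apart.

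Some arrays stood apart from the rest. The bacterial and phage transcripts spiked into the hybridisation mix were 17.3 times their median on the other arrays for Col-0 replicate 2 and 6.92 times for Col-0 replicate 3, against 0.673 to 1.38 times on the other 7 arrays. The median signal was 63.9 and 66.3 on these Col-0 arrays and 32.0 to 42.2 on the other 7. The highest of these 7 were Col-0 replicate 1 (42.1) and cngc19 replicate 3 (42.2). The 3' over 5' signal ratio of actin, which rises with RNA degradation, was 98.5 and 199.7 by its 2 control sets on cngc1-3 replicate 3, and 0.536 to 14.4 on the other 8 arrays. That of GAPDH was highest on Col-0 replicate 3 by 1 set (35.2) and on cngc1-3 replicate 3 by the other (6.37). The lists of tissue markers were poorly covered. Of 11 root markers only EXPA7, an expansin of root hairs, had a named probe set, with signals between 23 and 317.6. Of 20 shoot markers, 4 had one, and 3 of these were highest on Col-0 replicate 3. There the photosystem protein LHCB4.1 had 5551 and the Calvin cycle enzyme PRK 1441, against at most 307.1 and 123.3 on cngc1-3, cngc19 and Col-0 replicate 1. On Col-0 replicate 2 LHCB4.1 had 19.9, its lowest signal, and PRK 366.1. The remaining shoot marker, LHCB4.3, was highest on Col-0 replicate 2 (221.3, with 196.3 on Col-0 replicate 3 and at most 64 elsewhere). The part of these array differences in the values below was not tested.

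PYK10 was among the brightest probe sets of the root on 7 of the 9 arrays. Signals are MAS5 values on a linear scale. In cngc1-3 the PYK10 signal was 5559, 4891 and 4690 on replicates 1, 2 and 3. In cngc19 it was 5434, 4409 and 3762. These 6 arrays lay close together, with a coefficient of variation of 9.01% in cngc1-3 and 18.6% in cngc19. In Col-0 the signal was 4398 on replicate 1, 260.8 on replicate 2 and 448.0 on replicate 3. Col-0 replicate 1 therefore fell inside the range of cngc19, whereas the other Col-0 arrays had signals 16.9 and 9.82 times lower than replicate 1.

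JAL33 followed another course. Its signal was 3903, 3941 and 4195 on the cngc1-3 arrays, with a coefficient of variation of 3.96%. In cngc19 it was 5352 and 4880 on replicates 1 and 2, but 81.4 on replicate 3. The mean of replicates 1 and 2 was 62.8 times the signal of replicate 3, on which PYK10 remained at 3762. In Col-0 the JAL33 signal was 1319, 256.0 and 290.2. The highest Col-0 array thus lay below all cngc1-3 arrays and above cngc19 replicate 3.

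**Figure D1:**
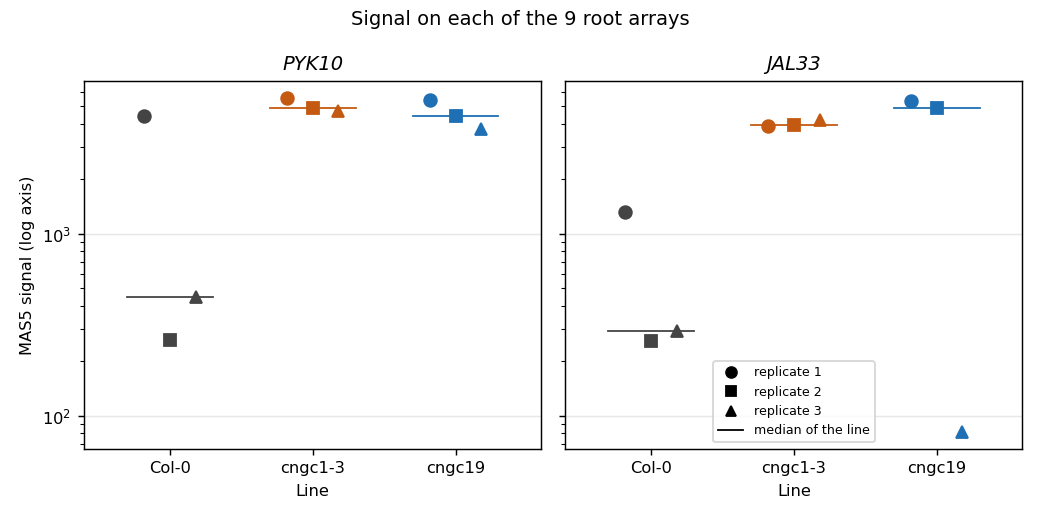
MAS5 signal (log axis) of PYK10 and JAL33 on each array, by line, with 1 marker per replicate and a bar at the median of the line. PYK10 was low only on Col-0 replicates 2 and 3 (260.8 and 448.0), while JAL33 was also low on cngc19 replicate 3 (81.4) and intermediate on Col-0 replicate 1 (1319).

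Ranks show how far each gene moved within its array, and they do not depend on scaling an array by a constant. They do shift when many other probe sets change on an array. A rank is a place in the order of brightness and not an order of transcript amounts, since probe sets differ in how strongly they bind. With rank 1 as the brightest, PYK10 ranked 11, 8 and 6 in cngc1-3, 6, 9 and 32 in cngc19, and 13 on Col-0 replicate 1. On Col-0 replicates 2 and 3 it ranked 2066 and 992, still within the brightest 9.08% and 4.36%. JAL33 ranked 59, 26 and 18 in cngc1-3 and 7 and 5 on cngc19 replicates 1 and 2. It ranked 342 on Col-0 replicate 1, 2201 and 1814 on Col-0 replicates 2 and 3, and 7683 on cngc19 replicate 3. On cngc19 replicates 1 and 2 the lectin and the glucosidase were thus both among the 9 brightest probe sets. On cngc19 replicate 3 the glucosidase stayed within the brightest 0.141% and the lectin lay at 33.8%. There JAL33 had 1.93 times the median signal of the array, against 157.2 and 133.4 times on replicates 1 and 2. PYK10 had 89.2 times the array median on that array, and 4.08 and 6.76 times on Col-0 replicates 2 and 3.

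**Figure D2:**
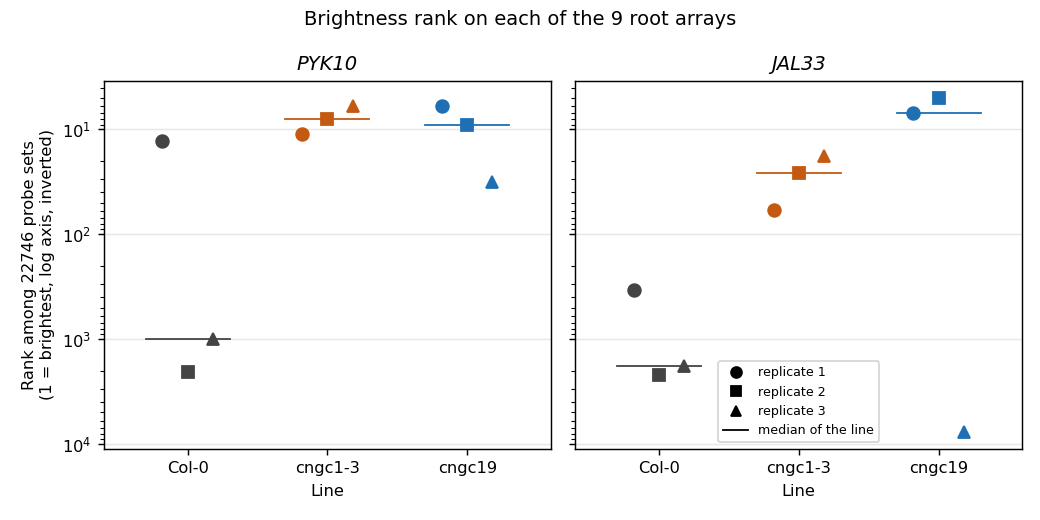
Rank of PYK10 and JAL33 among all 22746 probe sets on each array (1 is the brightest, log axis, inverted), by line, with a bar at the median of the line. PYK10 ranked between 6 and 32 on 7 arrays, and JAL33 between 5 and 59 on 5 arrays, down to 7683 on cngc19 replicate 3.

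Between lines, PYK10 had a mean signal of 5047 ± 454.7 (SD, n = 3) in cngc1-3, 4535 ± 843.3 in cngc19 and 1702 ± 2336 in Col-0. On the log2(signal + 16) scale, on which all differences below are given, the mean of cngc1-3 was 2.61 above that of Col-0 and the mean of cngc19 was 2.44 above it. The cngc1-3 arrays did not overlap the Col-0 arrays and the cngc19 arrays did. All 3 cngc1-3 arrays lay above all Col-0 arrays in 13.1% of the 13648 tested probe sets and below them in 11.3%. For cngc19 these shares were 7.45% and 6.88%. The Col-0 mean rested on its replicates 2 and 3: against Col-0 replicate 1 alone the PYK10 differences were 0.19 for cngc1-3 and 0.03 for cngc19. The SD within lines was 2.12 log2 units in Col-0, 0.13 in cngc1-3 and 0.27 in cngc19. Between cngc1-3 and cngc19, PYK10 differed by 0.17 and the arrays overlapped.

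JAL33 had a mean signal of 4013 ± 159.1 (SD, n = 3) in cngc1-3, 3438 ± 2916 in cngc19 and 621.7 ± 604.0 in Col-0. The mean log2 value of cngc1-3 was 3.07 above Col-0 without overlap, and that of cngc19 was 1.51 above Col-0 with overlap. Unlike that of PYK10, the difference of JAL33 between cngc1-3 and Col-0 replicate 1 alone stayed above 1 log2 unit, at 1.59. The difference of cngc19 turned on its replicate 3. With all cngc19 arrays it was 0.04 against Col-0 replicate 1 alone, and without cngc19 replicate 3 it was 1.94. Between cngc1-3 and cngc19, JAL33 differed by 1.56 with overlapping arrays, and by -0.35 without cngc19 replicate 3. Across the 13648 tested probe sets the arrays of cngc1-3 lay above those of cngc19 in 4.81% and below them in 3.45%. Both comparisons with Col-0 use the same Col-0 arrays, so their values are not independent of each other.

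Many of the probe sets that were brightest on the other 7 arrays dropped on Col-0 replicates 2 and 3. Selecting on the other 7 arrays favours a drop on these Col-0 arrays. The drops are therefore given only as a scale for PYK10 and JAL33, which are themselves among the 100. Among the 100 probe sets with the highest median on the other 7 arrays, PYK10 stood at place 5 and JAL33 at place 28. From that median, the 100 probe sets dropped by a median of 4.24 log2 units on Col-0 replicate 2, and 97 dropped by more than 1. PYK10 dropped by 4.09 there and JAL33 by 3.86, and 56 and 64 of the 100 dropped further. The 100 had a median rank of 5113.5 on that array, where PYK10 ranked 2066 and JAL33 2201. Neither gene stood out among bright probe sets there. On Col-0 replicate 3 the median drop was 1.34, and 59 dropped by more than 1. PYK10 dropped by 3.34 and JAL33 by 3.69 there, and only 16 and 12 of the 100 dropped further. The median rank of the 100 was 271.5 on that array, where PYK10 ranked 992 and JAL33 1814.

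The drop of JAL33 on cngc19 replicate 3 was among the largest on that array. Against the mean of cngc19 replicates 1 and 2 it came to 5.72 log2 units, where the 5th and 95th percentiles of the tested probe sets were -1.30 and 1.27. Only 2 of 13648 probe sets, both unnamed here, had a lower value. They had 38.9 and 1.68 on cngc19 replicate 3. In Col-0 they were low too, at 10.8, 51.0 and 60.2 for the first and 1.94, 11.9 and 49.1 for the second. JAL33 had 1319, 256.0 and 290.2 there. On the cngc1-3 arrays the 2 unnamed probe sets had 1071 to 3719 and 498.1 to 1004. What cngc19 replicate 3 and the Col-0 arrays have in common was not tested. PYK10 lay 0.38 lower on cngc19 replicate 3, and 25.0% of tested probe sets had a lower value than that. On Col-0 replicate 1, JAL33 lay 1.75 below the mean of replicates 1 and 2 of both mutant lines, where 1.58% of probe sets were lower, and PYK10 lay 0.20 below it. Against the mean of all 6 mutant arrays, which includes the low cngc19 replicate 3, JAL33 lay 0.81 lower, with 5.85% of probe sets lower still, and PYK10 0.11 lower. On cngc1-3 replicate 3, the array with the raised actin ratio, JAL33 lay 0.10 above and PYK10 0.15 below the mean of replicates 1 and 2.

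**Figure D3:**
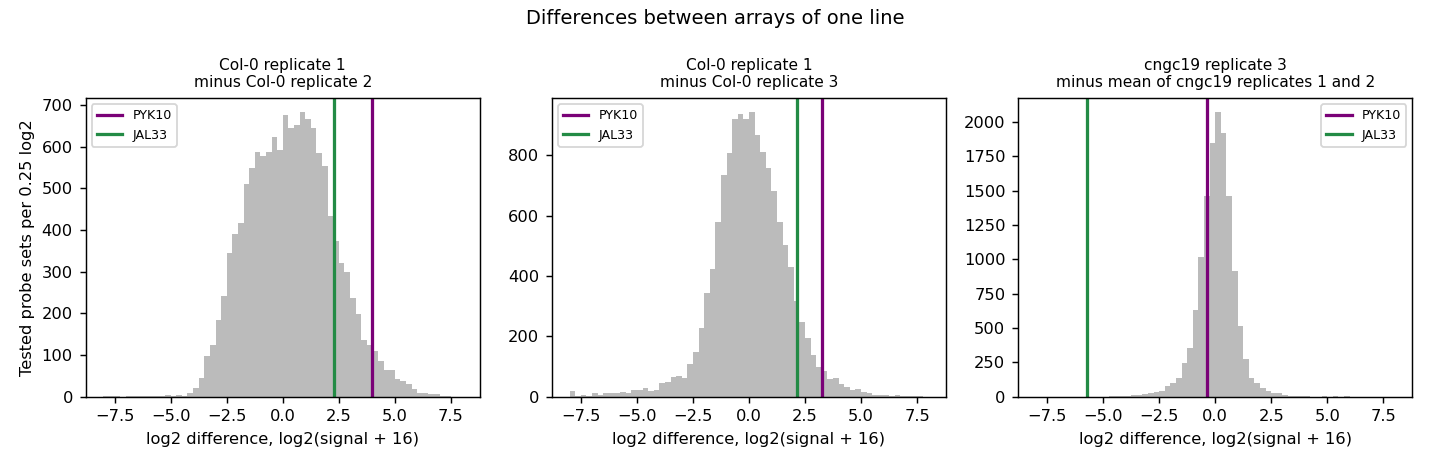
Histograms of the log2(signal + 16) difference between arrays of one line over the 13648 tested probe sets, with lines at PYK10 and JAL33. For Col-0 replicate 1 minus replicates 2 and 3, PYK10 (3.99 and 3.25) lay above the 95th percentile and JAL33 (2.29 and 2.12) below it. JAL33, at -5.72, lay at the lower edge of the differences between cngc19 replicate 3 and the other cngc19 arrays.

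The other genes of the ER body were covered in part. Of 24 further genes for PYK10-type beta-glucosidases, lectins and GDSL lipase-like proteins of the PYK10 complex and proteins of ER-body formation, 10 had a named probe set and 5 of these were bright enough to be tested. On the chromosome JAL33 lies in a row of related genes, between MLP-300B and JAL34, with PBP1, JAL31 and JR1 close by. Only JAL33 and JAL34 of that row had a named probe set of their own. JAL34, the neighbour of JAL33, had signals of 2785, 143.1 and 192.6 in Col-0, 2162, 3045 and 1907 in cngc1-3, and 2976, 2993 and 2663 in cngc19. It was thus low only on Col-0 replicates 2 and 3, like PYK10, and differed by 0.16 log2 units on cngc19 replicate 3, where JAL33 was lowest. JAL22, another lectin of the complex, had 319.2, 38.0 and 406.1 in Col-0, 1123, 1286 and 2050 in cngc1-3, and 1752, 1526 and 508.9 in cngc19. It was lower on Col-0 replicate 1 and on cngc19 replicate 3 than on the 5 other mutant arrays, as JAL33 was. JAL23 stayed dim, with signals between 1.60 and 66.2.

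NAI2 was low together with JAL33 on cngc19 replicate 3, where its log2 value minus the mean of the other cngc19 arrays was -3.26, and 0.418% of tested probe sets were lower. Its signal was 785.0, 16.7 and 91.0 in Col-0, 1318, 1209 and 2973 in cngc1-3, and 2015, 2056 and 197.5 in cngc19. NAI1 varied less, with 250.2, 126.5 and 11.8 in Col-0, 347.2, 275.0 and 214.4 in cngc1-3, and 367.9, 312.0 and 145.4 in cngc19. Its lowest array was Col-0 replicate 3. On cngc19 replicate 3 it lay 1.14 log2 units below the other cngc19 arrays, and JAL22 lay 1.65 below them. A step down of more than 1 log2 unit on this array was present in 8.07% of tested probe sets. It was also present in 3 of the 4 shoot markers, among them RCA, which activates Rubisco. RCA had 32.8 on that array and 31.2 on Col-0 replicate 1, against 235.0 and 209.8 on the other cngc19 arrays. Its part in the step was not tested. JAL33, JAL22, NAI1 and NAI2 made this step, and PYK10, JAL34 and BGLU25 did not.

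**Figure D4:**
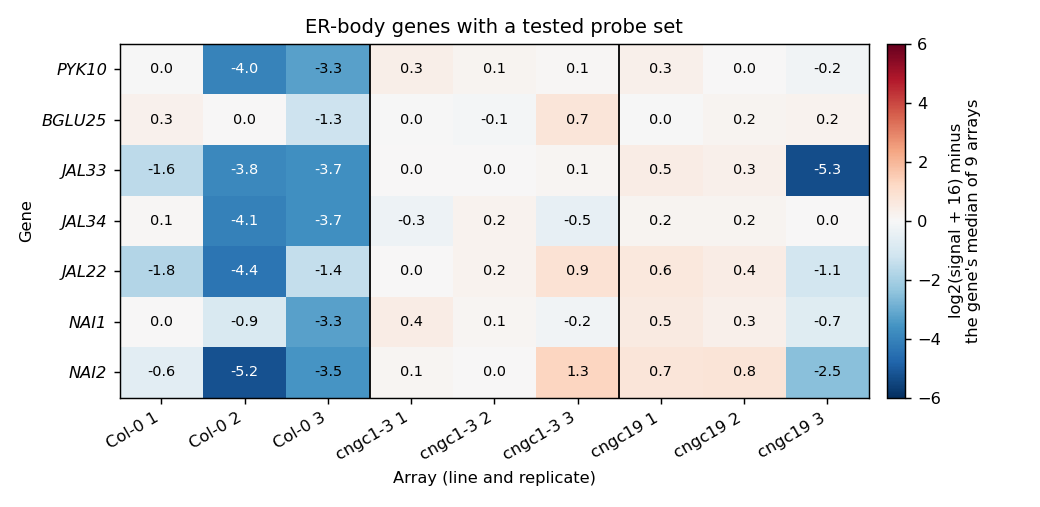
log2(signal + 16) of the 7 ER-body genes with a tested probe set on each array, minus the gene's median over the 9 arrays, with colour and printed value giving the same number. All but BGLU25 were far below their median on Col-0 replicate 2 or 3 or both, and JAL33 and NAI2 were far below it on cngc19 replicate 3 as well, where PYK10 and JAL34 were not.

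PYK10 and JAL33 are given without a test, and no other gene of the pathway passed it in any comparison of the main fit. The test, limma over 13648 probe sets, called 0% of them at a Benjamini-Hochberg adjusted p under 0.05 in cngc1-3 against Col-0, 0% in cngc19 against Col-0 and 0% between the mutant lines, with 3301, 2464 and 13 probe sets at an unadjusted p under 0.05. Of the 8 tested pathway genes besides PYK10 and JAL33, 5 were of the ER body. The others were the glucosinolate enzyme UGT74B1 and the ER chaperones CRT1b (a calreticulin) and AT5G07340. In cngc1-3 against Col-0, none of the 8 rose and none fell, and 3 had an unadjusted p under 0.05 (limma). JAL22 lay 2.88 ± 0.84 (SE) log2 units higher in cngc1-3 (limma, adjusted p = 0.181), NAI2 3.59 ± 1.16 (adjusted p = 0.181), JAL34 2.37 ± 1.02 (adjusted p = 0.196) and NAI1 1.51 ± 0.73 (adjusted p = 0.223). The median difference of the 8 genes was 1.02, against -0.03 over all tested probe sets. These probe sets were not matched to the 8 genes in brightness. Many bright probe sets dropped on Col-0 replicates 2 and 3, and the part of that drop in the difference was not tested. In cngc19 against Col-0, again none rose and none fell. JAL22, JAL34 and NAI2 lay 2.52, 2.67 and 2.77 higher in cngc19 (limma, adjusted p = 0.273 for each), and the median of the 8 genes was 1.05 against 0.05. JAL22 and NAI2 did not overlap between cngc1-3 and Col-0, and of the 8 genes JAL22 alone did not overlap between cngc19 and Col-0. These counts of 2 and 1 of 8 are near the shares over all tested probe sets, which were 13.1% above and 11.3% below Col-0 in cngc1-3 and 7.45% and 6.88% in cngc19. Without Col-0 replicate 1, which leaves Col-0 as the arrays with raised spike-in levels, JAL22, JAL34, NAI1 and NAI2 passed in both mutants, as did 36.2% of all tested probe sets in cngc1-3 and 33.7% in cngc19. Without Col-0 replicates 2 and 3, an alternative chosen after seeing the data, none passed, and with cngc19 replicate 3 left out as well JAL22 alone passed, in both mutants (limma, adjusted p = 0.0281 in cngc1-3 and 0.0222 in cngc19), where 3.67% and 3.72% of all tested probe sets passed.

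CRT1b had signals of 632.9, 273.2 and 369.5 in Col-0, 499.5, 472.4 and 531.8 in cngc1-3, and 355.1, 393.8 and 844.2 in cngc19. Its highest array was cngc19 replicate 3, where JAL33 was lowest. AT5G07340 had 45.9 on that array and between 74.8 and 173.4 on the others. UGT74B1, which attaches glucose in glucosinolate synthesis, had 456.8, 228.3 and 142.2 in Col-0, 254.1, 365.3 and 311.7 in cngc1-3, and 362.1, 398.0 and 453.1 in cngc19. The differences of these 3 genes between either mutant and Col-0 lay between -0.63 and 0.67 log2 units.

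By median signal over the 9 arrays, each gene was the brightest of its family among genes with a named probe set. This did not hold on every array. Probe sets with several symbols were not ranked. Of 7 genes carrying a JAL number in the gene table, 4 had a named probe set. JAL34 exceeded JAL33 on Col-0 replicate 1 and cngc19 replicate 3. JAL22 exceeded JAL33 on Col-0 replicate 3 (406.1 against 290.2) and cngc19 replicate 3 (508.9 against 81.4). BGLU15, with 288.3, exceeded PYK10 on Col-0 replicate 2. Genes carrying a BGLU number, the family of PYK10, were counted after their values had been seen. Of 47 in the gene table, 22 had a named probe set, 10 were tested and 9 stayed under a signal of 100 on every array. After PYK10 the next by median signal were BGLU15 with 356.3 and BGLU16 with 287.2. Since probe sets differ in response, these signals do not order the transcripts by amount. Col-0 replicate 1 exceeded the mean of Col-0 replicates 2 and 3 by more than 1 log2 unit in 2 of the 10 tested genes, PYK10 and BGLU46, and in 30.0% of all tested probe sets. BGLU25, a close relative of PYK10, had 228.5, 188.0 and 69.1 in Col-0, 185.7, 175.0 and 316.4 in cngc1-3, and 185.3, 212.1 and 221.6 in cngc19. BGLU19, ATA27 and BGLU24 of that list did not pass the filter on dim signals, with at most 18.4, 7.32 and 53.5. The GDSL lipase-like gene AT1G54020 reached at most 73.2, on Col-0 replicate 3.

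The genes whose pattern over the 9 arrays was closest to each gene differed between PYK10 and JAL33. Likeness was measured as the root mean square difference between log2 profiles, each centred on its own mean, against 7418 other named probe sets. Closest to PYK10 were AT5G11500, SIM (an inhibitor of cell-cycle kinases), AT2G31390, AT3G14430, AT5G12420 and AT3G20510, at 0.21 to 0.26 log2 units, where the median probe set was at 1.64. All 6 were lowest on Col-0 replicates 2 and 3. AT5G11500, for example, had 650.6, 29.2 and 90.3 in Col-0, 788.8, 754.9 and 713.5 in cngc1-3, and 840.6, 820.8 and 725.5 in cngc19. JAL34 stood at place 12, at 0.30. This likeness rested on Col-0 replicates 2 and 3: over the other 7 arrays the 6 genes stood at places 186 to 1790 and JAL34 at place 2603. JAL33 itself stood at place 3611 in likeness to PYK10, at 1.62, about the median.

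Closest to JAL33 were AT5G26260, AT4G13860, AT2G23910, GSTU25 (a glutathione transferase), ZW9 and DI21, at 0.68 to 0.91 log2 units, where the median probe set was at 2.20. All 6 dropped on cngc19 replicate 3. AT5G26260 had 511.2, 26.6 and 22.0 in Col-0, 1510, 1113 and 1396 in cngc1-3, and 1614, 1465 and 49.8 in cngc19. It was the closest to JAL33 also over the 7 arrays without Col-0 replicates 2 and 3. GSTU25 had 36.3 on cngc19 replicate 3, 46.5, 16.7 and 31.7 in Col-0, and between 498.5 and 650.9 on the other mutant arrays. NAI2 stood at place 21 of 7418 in likeness to JAL33, at 1.06, and JAL22 at place 169.

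**Figure D5:**
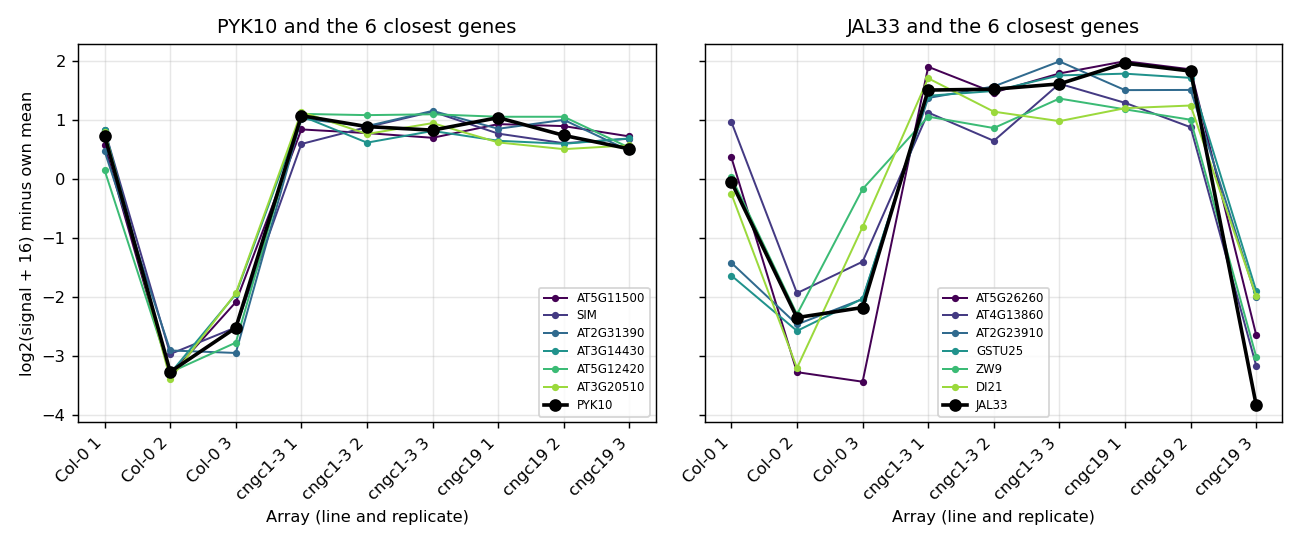
Profiles of log2(signal + 16) minus each gene's own mean over the 9 arrays, for PYK10 and JAL33 (black) and the 6 genes closest to each. The genes closest to PYK10 share its low values on Col-0 replicates 2 and 3, and those closest to JAL33 share its drop on cngc19 replicate 3, though none dropped as far.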

How the data were processed

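The authors deposited signal intensities on a linear scale, 1 per probe set and array, and the submitters' processing notes name MAS5 and GCOS. A genome build is not given in the sources used here. Every array had a trimmed mean signal of 100.0 (2% trimmed at each end), a scaling by the authors that was kept. Detection calls and saturation flags were not used here. Precision is limited by having 3 arrays a line. Line and replicate number were read from the titles of the samples. Nothing in the labels says that tubes came from separate cultures, so p-values measure the spread between tubes, which may be technical. No pair of arrays held identical values.

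Probe sets were named through the platform annotation and a RefSeq gene table (TAIR10.1, used for names and neighbours): 13513 had 1 symbol, 503 several and 8730 are unnamed here. Of the first, 13436 matched the gene table. PYK10 and JAL33 have 1 probe set each. Signals were analysed as log2(value + 16), which understates changes of dim probe sets, over the 13648 probe sets with a mean log2 value at or above the 40th percentile. Lines were compared in 1 model of all 9 arrays with limma 3.58.1 (lmFit, eBayes with trend, two-sided, 6 residual degrees of freedom) in R 4.3.3. The procedure was checked on simulated data. Ranks and likeness used Python 3.11.15 and pandas 2.3.3.

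The members, gene lists and tests were chosen with earlier results of these data known. Named were every measured gene of the ER-body lists, up to 4 of each other list by highest mean signal, and the 6 closest genes in likeness. No other myrosinase of a list of 14 had a named probe set. The main model did not pair arrays by replicate number. Alternatives were other pseudocounts, filters, normalizations and array weights, a replicate block, fits of only the compared lines, and arrays left out. Sequences were not used here.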

Additional observations from a re-analysis of the deposited data

How the results depend on the processing

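Pseudocounts of 1 and 64, quantile normalization, centring on the median and the replicate block moved no PYK10 or JAL33 difference by more than the spread within lines. Without 1 array, the differences ranged as follows. PYK10 lay 1.82 to 3.82 above Col-0 in cngc1-3, 1.65 to 3.65 in cngc19, and 0.04 to 0.30 higher in cngc1-3 than in cngc19. JAL33 lay 2.66 to 3.80 above Col-0 in cngc1-3 and 0.52 to 3.41 in cngc19, and between the mutants it ranged from -0.35 to 2.54, turning sign without cngc19 replicate 3. Without Col-0 replicates 2 and 3 (added after seeing the data), the differences from Col-0 were 0.19 and 0.0278 for PYK10 and 1.59 and 0.0353 for JAL33, and without cngc19 replicate 3 as well, 0.19 and 0.15 for PYK10 and 1.59 and 1.94 for JAL33. Both settings leave 1 Col-0 array, assumed to vary like the mutant arrays.

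Probe sets called numbered 0 of 13648 in each comparison, and with array weights 1228, 1047 and 9. Without 1 array they ranged from 0 to 4938 in cngc1-3 and from 0 to 4603 in cngc19 against Col-0, both highest without Col-0 replicate 1, and were 12 and 11 without cngc19 replicate 3. With both sets of arrays left out they were 501 and 508. Of the 8 tested pathway genes, array weights called 3 in cngc1-3 and 4 in cngc19 against Col-0, beside 1228 and 1047 of all 13648 probe sets. Without 1 array, 0 to 4 of the 8 were called. The 4 in each mutant came without Col-0 replicate 1, where 36.2% and 33.7% of all tested probe sets were called. Other settings with more than 1 Col-0 array kept every count at 0. The causes were not tested. As a pairing check, deviations of same-numbered arrays correlated between -0.23 and 0.19 over tested probe sets. Arrays with different numbers were not compared in this way, so the check cannot decide whether same-numbered arrays shared a culture or batch. The replicate block called 0 probe sets. It left the PYK10 differences at 2.61, 2.44 and 0.17 and those of JAL33 at 3.07, 1.51 and 1.56.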
